A study of Mus musculus with 64 samples.

Results

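The cytosolic ribosomal protein genes encode the proteins of the large and the small ribosomal subunit that translate nuclear mRNAs. They were taken from the deposited table of 23134 genes by biotype (protein coding) and by symbol (Rpl or Rps with a number and an optional letter or l suffix, Rplp0, Rplp1, Rplp2 or Rpsa), which gave 86 genes, 51 of the large and 35 of the small subunit. Of these, 83 passed the filter on low values (49 large, 34 small) and 3 did not, namely Rpl39l, Rps4y2 and Rpl3l. As background, each of these proteins is needed in about equal number per ribosome, and their mRNAs mostly begin with a terminal oligopyrimidine (TOP) tract, through which mTORC1 and the RNA-binding protein LARP1 control their translation and stability. A T cell that meets antigen grows before it divides, and it makes new ribosomes under the control of MYC and mTORC1. The set was defined by name and biotype and not by its values, though with earlier results of these data known. Some of the members and other genes described below were chosen by their values.

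Transcripts were measured by sequencing total RNA of splenic CD4 T cells from C57BL/6J mice, in 64 libraries that form 16 groups of 4. All mice carried Cd4-Cre-ERt2, a Cre recombinase made in Cd4-expressing cells and active after 4-OH-tamoxifen, which every group received. DKO cells were Rc3h1/2 fl/fl (the genes of Roquin-1 and Roquin-2), KO cells were Zc3h12a fl/fl (the gene of Regnase-1), TKO cells were Rc3h1/2 fl/fl and Zc3h12a fl/fl together, and WT cells carried Cre with no floxed gene named. Roquin and Regnase-1 are known as RNA-binding proteins that repress mRNAs of T cell activation. All cells had been activated in culture for 40 h (anti-CD3/28, Th1 conditions) and kept for 2 days with IL-2, and were then restimulated with anti-CD3/28 for 0, 1, 2 or 4 h. The cells were therefore not resting T cells at 0 h, and the deletion was induced in isolated cells. Whether the 4 libraries of a group stem from different mice or culture wells is not stated, and the p-values below therefore rest on a spread between libraries that could be technical.

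The libraries held 5369858 to 11666495 reads (median 7720333), of which the 10 most abundant loci took 26.6 to 38.1%. The 4 values of a group are deposited as an unnumbered list, and library 1 is the first value of that list. CD4 T cell identity genes summed to 955 to 1059 CPM (reads scaled by the library's total) in WT cells at 0 h. Among markers of other cells, Adgre1 and Cd14 of macrophages were at 0 or not listed, whereas the 6 B cell markers summed to 366 to 528 CPM in TKO cells and 136 to 232 CPM in WT cells at 0 h, and to 66.5 to 89.4 CPM in TKO cells and at most 28.4 CPM in WT cells at 4 h. Of the B cell markers 4 were tested (limma). At each of the 4 times 2 of them were higher in TKO than in WT cells, and at 4 h 1 was lower. In KO cells the 6 B cell markers summed to 235 to 323 CPM at 0 h and 28.8 to 52.2 CPM at 4 h, also above WT cells. DKO cells had 221 to 277 CPM at 0 h and 25.9 to 37.6 CPM at 4 h, which overlapped WT cells. Of the tested B cell markers 1 was higher than in WT cells in DKO cells at 0, 1 and 4 h and in KO cells at 2 and 4 h. Of the 6 myeloid markers 4 were in the table and 2 were tested. Of these 2, 1 was higher in KO and in TKO cells than in WT cells at each of the 4 times (limma). In KO cells at 2 and 4 h and in TKO cells at 1 and 4 h, the other tested myeloid marker was lower. The list summed to 63.4 to 69.2 CPM in TKO, 52.1 to 71.1 CPM in KO and 40.4 to 50.1 CPM in WT cells at 0 h, and to 57.8 to 70.8, 45.5 to 55.6 and 24.6 to 29.6 CPM in these cells at 4 h. Of the 2 CD8 T cell markers 1 was higher in TKO and in KO cells at 4 h, where they summed to 20.4 to 31.9 CPM in TKO, 14.5 to 56.0 CPM in KO and 5.88 to 21.6 CPM in WT cells. Of the 4 dendritic cell markers, which summed to 0.321 to 5.05 CPM in WT cells at 0 h, 1 was tested. It was lower in KO cells at 4 h and in TKO cells at 0 and 4 h. The part of these B cell, myeloid, CD8 and dendritic cell transcripts in the results below was not tested. Of the targeted genes, Rc3h1 had 63.7 to 75.8 CPM in DKO cells and 81.0 to 106 CPM in WT cells at 0 h, and Zc3h12a had 50.9 to 76.6 CPM in KO cells and 98.6 to 120 CPM in WT cells at 1 h. Zc3h12a did not separate at 0 h, with 9.82 to 20.2 CPM in KO cells and 9.96 to 14.3 CPM in WT cells, and Rc3h2 was not lower in DKO cells (85.7 to 113 CPM) than in WT cells (66.4 to 90.3 CPM) at 0 h. In TKO cells Rc3h1 had 61.1 to 84.6 CPM at 0 h, which overlapped WT cells, and 56.7 to 71.1 CPM at 1 h, against 94.1 to 102 CPM in WT cells. Zc3h12a had 11.9 to 22.9 CPM in TKO cells at 0 h, again overlapping WT cells, and 49.4 to 60.1 CPM at 1 h, below all WT libraries. Rc3h2 had 86.5 to 122 CPM in TKO cells at 0 h and was not lower than in WT cells. The labels do not say which exons were floxed, and reads from exons that remain are counted too. In bulk RNA, a different make-up of the cells and a different amount of RNA per cell cannot be told apart.

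Although each ribosome needs its proteins in about equal number, the read counts of the 86 genes spanned several orders of magnitude. Rpl4, whose protein lines the tunnel through which the new peptide leaves, had the most reads, a mean of 12080 normalized counts over all 64 libraries and 12.7% of all reads on these genes. Rplp0, the base of the stalk that recruits translation factors, followed with 4900. Rpsa, also known as the laminin receptor, had 3082, Rpl8 had 3041 and Rps2 had 3028 normalized counts, and these 5 genes together held 27.5% of the reads of the set. Among the genes that passed the filter, Rps27, a small-subunit zinc finger protein, had the fewest reads with 23.7 normalized counts, fewer than Rps29 with 47.4. On a per-kilobase scale the 81 genes with an annotated transcript length ran over 114-fold, with Rps27 at 68.8 and Rpl4 at 7856 normalized counts per kb (median 885). This scale corrects for length only, and not for reads of a gene that were counted on other rows. Rpl4 lies on chromosome 9 (GRCm38, 64173375 to 64178666, plus strand) and Rps27 on chromosome 3 (90212522 to 90213651, minus strand).

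Reads of this family were also counted on pseudogene rows. Ribosomal protein genes have left many processed pseudogenes in the mouse genome, and 111 further rows of the table carried the name of 1 of 48 members with a pseudogene suffix. Those rows had 43.5% as many reads as the members themselves. In 18 of the members that passed the filter, the pseudogene rows had more reads than the member's own row. Rps6, the classic substrate of the S6 kinases, had a mean of 158 normalized counts against 1925 on its pseudogene rows. Rpl38, which mouse embryos need for the patterned translation of Hox mRNAs, had 213 against 3973, and Rpl28 had 124 against 2888. These rows are near-identical copies. Stretches of 50 bases were also searched in all annotated genes, on both strands and with overlapping genes included. In that search 82 of the 86 members had at least 50 matches to another gene (median share of unique stretches 76.9%). A level of such a gene is therefore uncertain. Rps3a2 (9.8% unique), Rps3a3 and Rps4y2, protein coding in the deposited table, are processed pseudogenes in GENCODE M21.

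The share of all reads that fell on the 86 genes was low, near 1%, and moved with time in all 4 genotypes. In WT cells it was 0.889 to 1.048% at 0 h, 0.918 to 1.02% at 1 h, 1.055 to 1.18% at 2 h and 1.16 to 1.19% at 4 h. The WT libraries at 2 h and at 4 h all lay above those at 0 h, while those at 1 h overlapped them. DKO cells held 0.798 to 1.01% at 0 h and 1.04 to 1.22% at 4 h, KO cells 0.974 to 1.03% at 0 h and 1.19 to 1.28% at 4 h, and TKO cells 0.911 to 1.06% at 0 h and 1.13 to 1.22% at 4 h. In each knockout, too, every library at 4 h lay above every library at 0 h.

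**Figure D1:**
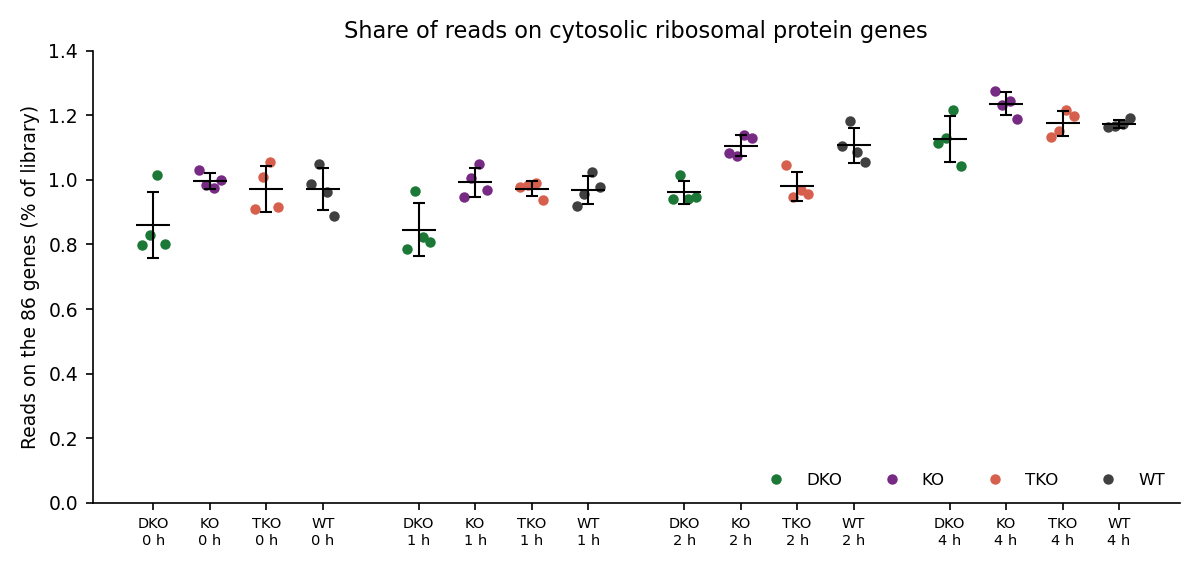
Percent of a library's reads on the 86 cytosolic ribosomal protein genes, for DKO, KO, TKO and WT cells at 0, 1, 2 and 4 h of restimulation; each point is 1 library, the long line the group mean and the bar its SD. WT libraries sit at 0.889 to 1.048% at 0 h and at 1.16 to 1.19% at 4 h.

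Most ribosomal protein mRNAs rose in WT cells within 2 h of restimulation. Fold changes were tested with limma on log2(normalized count + 1) over 16140 genes, are given on that scale ± SE with n = 4 libraries a group, and were called at a Benjamini-Hochberg adjusted p under 0.05. At 1 h against 0 h, 29 of 83 members rose and 0 fell, where 18.7% of all genes tested rose and 12.4% fell. The median change was 0.30 for the members and -0.10 for all genes. At 2 h, 69 rose and 0 fell, against 26.5% and 25.4% of all genes, with a median of 0.56 for the members (quartiles 0.46 and 0.93) and -0.16 for all genes, and all 83 values were above 0. At 4 h, 40 rose and 1, Rpl24, was called lower (though not under all scalings), against 24.6% and 27.1% of all genes, with medians of 0.43 and 0.01. The 4 libraries lay above all 4 WT libraries at 0 h for 22 members at 1 h (16% of all genes), for 42 at 2 h (21.8%) and for 31 at 4 h (21.8%). Over 6 scalings of the libraries the members' medians stayed above 0, at 0.03 to 0.45 for 1 h, 0.28 to 0.59 for 2 h and 0.42 to 0.52 for 4 h, while the all-gene median at 2 h lay between -0.36 and -0.09. At all 6 scalings 17, 34 and 40 members rose at 1, 2 and 4 h. The counts over these scalings were 18 to 49 higher at 1 h, 37 to 72 at 2 h and 40 to 52 at 4 h. Under quantile normalization 6 members were lower at 1 h and 1 at 2 h, and no member was lower at any of the 3 times under all 6 scalings.

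The time courses had few shapes. With the scaling used for the tests, the change was highest at 2 h for 69 members, at 4 h for 12 and at 1 h for 2. The median step was 0.30 between 0 and 1 h, 0.32 between 1 and 2 h and -0.18 between 2 and 4 h, and 70 members had a lower value at 4 h than at 2 h. The order of 2 and 4 h depended on the scaling. Over the scalings tried, the members' median was 0.28 to 0.59 at 2 h and 0.42 to 0.52 at 4 h. The lowest median at 2 h thus lay below every median at 4 h. The WT range of the share of reads, given above, was not lower at 4 h than at 2 h. Of the 69 that were higher at 2 h, 27 were also higher at 1 and 4 h, while another 27 were higher at 2 h alone among these times. The remaining 14 passed at no time. Both subunits moved, since 41 of 49 large-subunit and 28 of 34 small-subunit genes rose at 2 h, with median changes of 0.60 and 0.50.

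**Figure D2:**
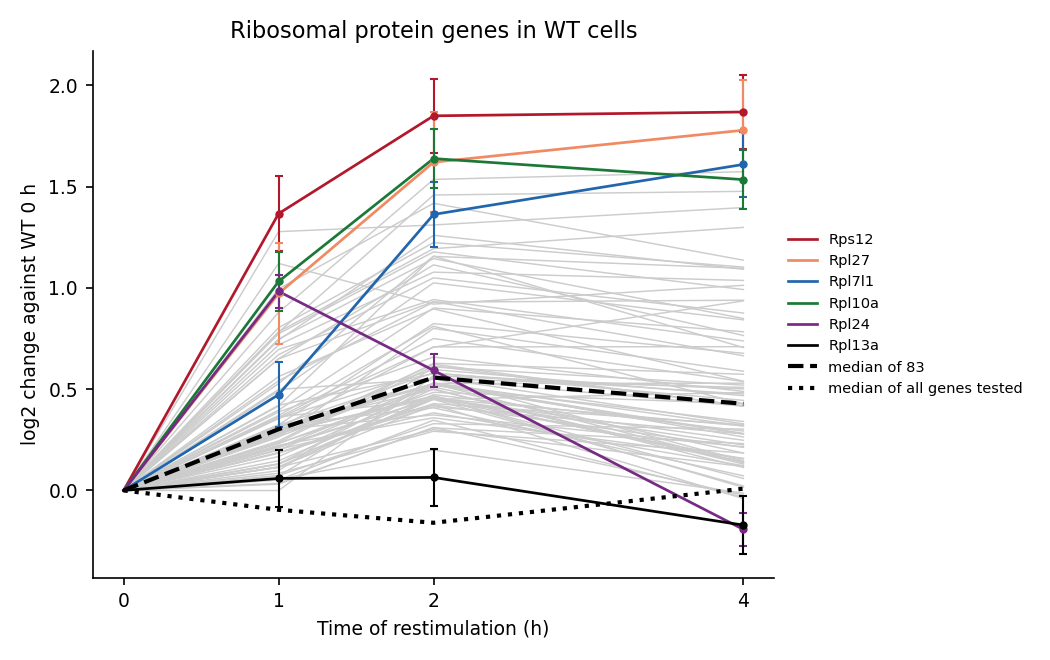
Change against 0 h in WT cells (log2 of normalized count + 1) at 1, 2 and 4 h for each of the 83 members that passed the filter; thin lines are members, coloured lines with SE bars 6 named members, the dashed line the median member and the dotted line the median of all genes tested. The median member reached 0.56 at 2 h, while Rps12 was at 1.85 and Rpl13a at 0.06.

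Rps12, a protein of the small subunit whose gene also hosts snoRNAs, had the largest rise at each time. It lies on chromosome 10 (GRCm38, 23785183 to 23787275, minus strand). Its WT libraries at 0 h had 96.8, 88.9, 56.7 and 40.7 normalized counts. At 1 h they had 159, 137, 212 and 198, at 2 h they had 237, 246, 236 and 256, and at 4 h they had 251, 248, 281 and 212. No restimulated library overlapped those at 0 h, and the change was 1.37 ± 0.18 at 1 h, 1.85 ± 0.18 at 2 h and 1.87 ± 0.18 at 4 h (limma, adjusted p = 1.58e-08, 6.83e-13 and 4.30e-13).

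Rpl10a, the protein of the stalk beside the exit site for tRNA, lies on chromosome 17 (28328471 to 28331033, plus strand). At 0 h it had 205, 221, 193 and 111 normalized counts. At 1 h it had 433, 324, 365 and 335, at 2 h it had 465, 568, 728 and 481, and at 4 h it had 506, 481, 532 and 537. The groups at 0 h and 2 h did not overlap, and Rpl10a rose by 1.64 ± 0.15 at 2 h (adjusted p = 1.31e-14). Its own row had a mean of 399 normalized counts, against 2914 on its pseudogene row, and both together changed by 0.63 at 2 h, from group means. Rpl12, which binds rRNA at the base of the same factor-recruiting stalk as Rplp0, had 340, 360, 431 and 328 normalized counts at 2 h and 127, 149, 152 and 83.5 at 0 h, a rise of 1.54 ± 0.15 (adjusted p = 1.64e-13). Rpl27, a large-subunit protein encoded on chromosome 11 (101442298 to 101445529, plus strand), had 80.5, 136, 156 and 106 normalized counts at 2 h and 38.2, 46.8, 56.7 and 18.3 at 0 h. Its groups were apart as well, with a rise of 1.62 ± 0.25 at 2 h (adjusted p = 1.18e-07) and of 1.78 ± 0.25 at 4 h (adjusted p = 1.18e-08). With their pseudogene rows included, Rpl12 and Rpl27 changed by 1.49 and 1.42 at 2 h, from group means.

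Rps28 and Rps13, both of the small subunit, were the next largest rises at 1 h after Rps12. Rps28 had 167, 117, 135 and 128 normalized counts at 1 h and 64.6, 47.9, 109 and 27.4 at 0 h, so that the lowest library at 1 h lay just above the highest at 0 h (1.28 ± 0.32, adjusted p = 0.00109). Rps28 overlaps Kank3 on the opposite strand, and the strand setting of the authors' counting is not given in the sources used here. Rps13 had 90.2, 122, 91.2 and 107 at 1 h and 52.5, 39.8, 58.2 and 37.7 at 0 h (1.12 ± 0.19, adjusted p = 2.39e-06). Its pseudogene rows had a mean of 1443 normalized counts, against 80.5 on its own row. Together these rows changed by 0.17 at 1 h, from group means.

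Several members have a role outside the ribosome or in its regulation. Rps27a, made as a fusion of ubiquitin with a small-subunit protein, had 260, 330, 293 and 324 normalized counts at 2 h and 116, 133, 124 and 81.4 at 0 h and rose by 1.42 ± 0.15 (adjusted p = 1.96e-12). Rps6 had 191, 203, 202 and 235 normalized counts at 2 h and 75.3, 104, 137 and 55.9 at 0 h, with no overlap (1.22 ± 0.17, adjusted p = 1.92e-08). Rpl5 and Rpl11 bind Mdm2, the inhibitor of p53, when they are free of the ribosome. Rpl5 had 670, 631, 945 and 764 normalized counts at 2 h and 345, 289, 496 and 234 at 0 h and rose by 1.18 ± 0.18 (adjusted p = 2.18e-07), and Rpl11 rose by 0.90 ± 0.14 (adjusted p = 8.96e-08).

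The most abundant members rose less. Rpl4 had 14560, 14956, 11817 and 15633 normalized counts at 2 h and 9322, 11428, 8022 and 10109 at 0 h, all 2 h libraries being the higher ones, a rise of 0.55 ± 0.19 (adjusted p = 0.0134). Rpsa rose by 0.47 ± 0.12 (adjusted p = 0.000502) and Rplp0 by 0.38 ± 0.16 (adjusted p = 0.0421) at 2 h. Among the stalk proteins that bind Rplp0, Rplp2 rose by 0.53 ± 0.14 (adjusted p = 0.000708), whereas Rplp1 changed by 0.20 ± 0.21 and did not pass (adjusted p = 0.44). None of these 5 passed at 4 h. Under quantile normalization the 2 h changes of Rpl4, Rpsa and Rplp0 were -0.02, -0.08 and -0.28, so their direction depended on the scaling.

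The 14 members that passed at no time included Rpl34, Rpl37, Rps9, Rpl39, Rplp1, Rpl41, Rpl23 and Rpl13a. Rpl13a, known in human cells as part of a translational inhibitor made after interferon gamma, had 2414, 3105, 3433 and 2321 normalized counts at 2 h and 2708, 2543, 3477 and 2088 at 0 h. These groups overlapped over nearly their whole range (0.06 ± 0.14, adjusted p = 0.725). Rpl39, a short protein of the exit tunnel, varied widely within groups, with 605, 815, 1653 and 584 normalized counts at 2 h and 520, 519, 1077 and 407 at 0 h (0.50 ± 0.36, adjusted p = 0.245).

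Rpl24, a protein at the bridge between the subunits, had a course of its own. At 0 h it had 380, 386, 501 and 463 normalized counts. At 1 h it had 897, 848, 809 and 847, at 2 h it had 607, 636, 761 and 601, and at 4 h it had 353, 361, 391 and 400. All libraries at 1 and 2 h lay above those at 0 h, and those at 4 h overlapped them. Rpl24 rose by 0.98 ± 0.08 at 1 h (adjusted p = 7.88e-15) and by 0.59 ± 0.08 at 2 h (adjusted p = 1.47e-08), and fell by 0.19 at 4 h (SE 0.08, adjusted p = 0.0469), a call that did not hold under all 6 scalings. Its annotated transcripts overlap Pcnp and Zbtb11os1 on the opposite strand, and reads of these genes cannot be told apart from its own where the counting used no strand.

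To show the start sites behind the extremes of the response, stretches of 60 bases (40 before and 20 from the RefSeq start, GRCm38.p6) are printed for the 4 largest rises at 2 h and, after them, for 4 of the smallest changes among members with a RefSeq window. Capitals mark the pyrimidine tract nearest the start, read on the gene's strand as a C followed by at least 4 bases that are each C or T. Where a run of these letters held several such C, the C nearest the start was taken as the first base. The marked tract can therefore be the end part of a longer run, as in Rpl10a, Rps15 and Rps9.
Rps12 (chr10:23787190-23787249, minus strand): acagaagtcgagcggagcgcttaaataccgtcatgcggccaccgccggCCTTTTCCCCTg
Rpl10a (chr17:28328431-28328490, plus strand): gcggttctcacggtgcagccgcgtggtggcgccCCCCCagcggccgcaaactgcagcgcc
Rpl27 (chr11:101442205-101442264, plus strand): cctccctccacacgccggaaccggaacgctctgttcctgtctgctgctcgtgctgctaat
Rpl12 (chr2:32961672-32961731, plus strand): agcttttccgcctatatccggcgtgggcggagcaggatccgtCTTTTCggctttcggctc
Rps15 (chr10:80292391-80292450, plus strand): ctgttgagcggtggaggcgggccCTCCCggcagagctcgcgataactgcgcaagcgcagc
Rpl41 (chr10:128549149-128549208, minus strand): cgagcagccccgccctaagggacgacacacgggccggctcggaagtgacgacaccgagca
Rps9 (chr7:3704001-3704060, plus strand): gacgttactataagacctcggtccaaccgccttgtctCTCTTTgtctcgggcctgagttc
Rpl13a (chr7:45128726-45128785, minus strand): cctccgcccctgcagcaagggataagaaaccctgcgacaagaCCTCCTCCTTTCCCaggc
Marked tracts began within 10 bases of the start in Rps12, Rpl10a and Rpl12, of the 4 largest rises, and also in Rps9 and Rpl13a, which did not pass. Rpl27 and Rpl41 had no such tract near the start.

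RefSeq windows of 300 bases (250 before and 50 after the start) were held for 63 of the 86 members. A tract whose first base lay within 10 bases of the start was found in 60.3% of these members and in 34.4% of 27025 genes. With its first base exactly at the start it was found in 20.6% of members and 3.01% of genes. On the opposite strand, within 10 bases, the shares were 23.8% and 38.5%. In each of these shares the first base of a tract could be a C inside a longer run that began farther away. CCGGAA, the core bound by ETS family factors, stood on either strand in 55.6% of members and 16.7% of genes, AAGATGGCG, a YY1 site, in 6.35% and 1.64%, and CACGTG, the E-box bound by MYC, in 9.52% and 8.09%. The median change at 2 h was 0.60 for the 36 tested members with a tract within 10 bases of the start and 0.61 for the 25 without. With the limit at 20 bases it was 0.60 for 49 members with a tract and 0.76 for 12 without, and neither difference was tested. These matches describe the letters of the window and are not evidence of binding or of the start site used in these cells.

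The size of the rise ran against the level of the gene. For the correlations and the bands below, levels were taken from the DKO, KO and TKO libraries only, so that they share no library with the WT changes. Across the 83 members the Spearman correlation of the 2 h change with the level was -0.71, and with the level per kb it was -0.71 (81 members), whereas across all 16140 genes tested it was 0.35. It was -0.62 at 1 h and -0.75 at 4 h. The members were also split by their mean level over all libraries, WT included, into a lower, a middle and an upper group of 27, 28 and 28 genes. These groups had median changes of 1.05, 0.56 and 0.46 at 2 h. All 19 members with a change above 1 had a level, on that same mean, below that of the median member. In the band of 7 to 9 on the log2 scale, 26 members had a median change of 0.93 at 2 h and the 4345 other genes 0.08, while above 11 the 15 members had 0.45 and the 514 other genes 0.56. These are correlations across genes of the same libraries, and genes are not independent replicates.

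**Figure D3:**
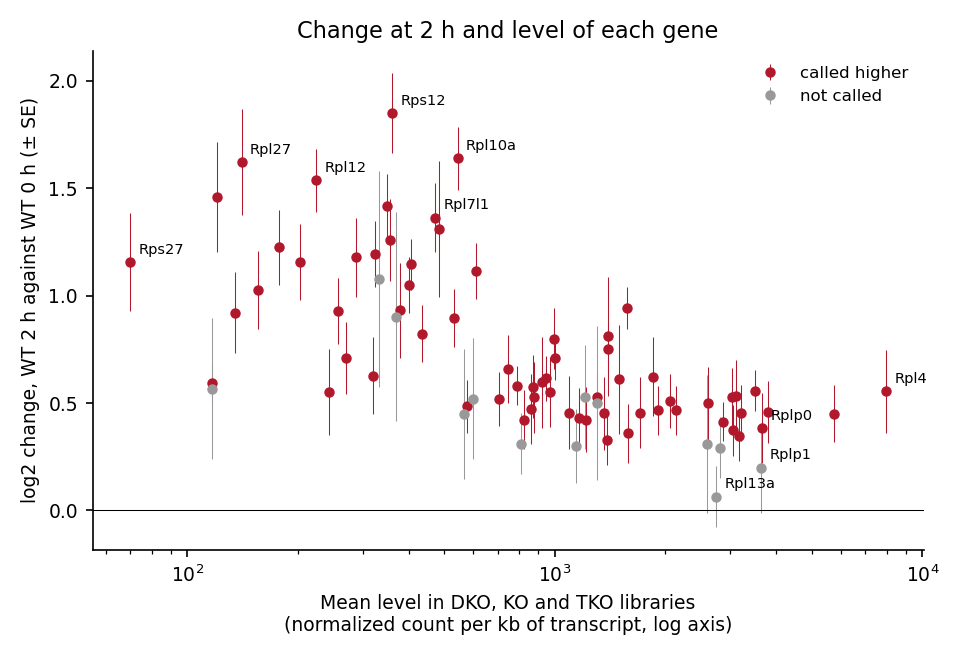
Change at 2 h against 0 h in WT cells (log2 of normalized count + 1, vertical axis) against the mean level per kb in the DKO, KO and TKO libraries (log axis) for 81 members; each point is 1 gene with its SE, coloured by whether it passed the test. The change is largest on the left of the plot, with a Spearman correlation of -0.71.

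Other measured properties of the genes followed the rise less closely. The Spearman correlation of the 2 h change was -0.01 with the share of unique 50-base stretches, 0.27 with the number of genes sharing them, -0.15 with transcript length and -0.04 with the number of snoRNAs in the gene. The pseudogene rows had a median change of 0.35 at 2 h, smaller than that of the members, while the median of all genes was -0.16. Of the 75 tested, 20 rose and 0 fell, beside 26.5 and 25.4% of all genes. The share of pseudogene rows that rose was thus near that of all genes. For the 18 members whose pseudogene rows had more reads than the member, the median change at 2 h was 0.71 on the member's row and 0.39 on the pseudogene rows. Rps6, for example, changed by 1.15 on its own row and by 0.27 on its pseudogene rows, each from group means. For the 35 tested members with no pseudogene row the median was 0.53, 26 rose, and the Spearman correlation with level was -0.62. With the pseudogene reads added to each member, an alternative chosen after seeing the data, 68 members rose at 2 h with a median of 0.48.

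Paralog pairs gave a measure that no scaling of the library can change, the reads of 1 paralog as a percent of its partner's in the same library, with no correction for length. Rpl7l1, the paralog of Rpl7 and relative of the yeast assembly factor Rlp7, lies on chromosome 17 (46773907 to 46782672, minus strand). In WT cells at 0 h its reads were 27.8, 27.6, 23.3 and 19.6% of those of Rpl7. At 1 h they were 30.4, 26.8, 31.8 and 29.9%, at 2 h they were 55.2, 40.0, 44.8 and 48.5%, and at 4 h they were 61.8, 66.8, 67.3 and 61.3%. The groups at 2 and 4 h lay wholly above that at 0 h. The difference in the log2 ratio was 0.94 at 2 h and 1.401 at 4 h against 0 h (exact permutation test, 2-sided, p = 0.0286, the smallest that 4 against 4 libraries can give, adjusted to 0.286 over 60 tests, so that no ratio could pass). Rpl7l1 itself rose by 1.36 ± 0.16 at 2 h and 1.61 ± 0.16 at 4 h (limma, adjusted p = 1.13e-10 and 5.36e-13), while Rpl7 changed by 0.42 ± 0.15 (adjusted p = 0.0161) and 0.21 ± 0.15 (adjusted p = 0.264).

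**Figure D4:**
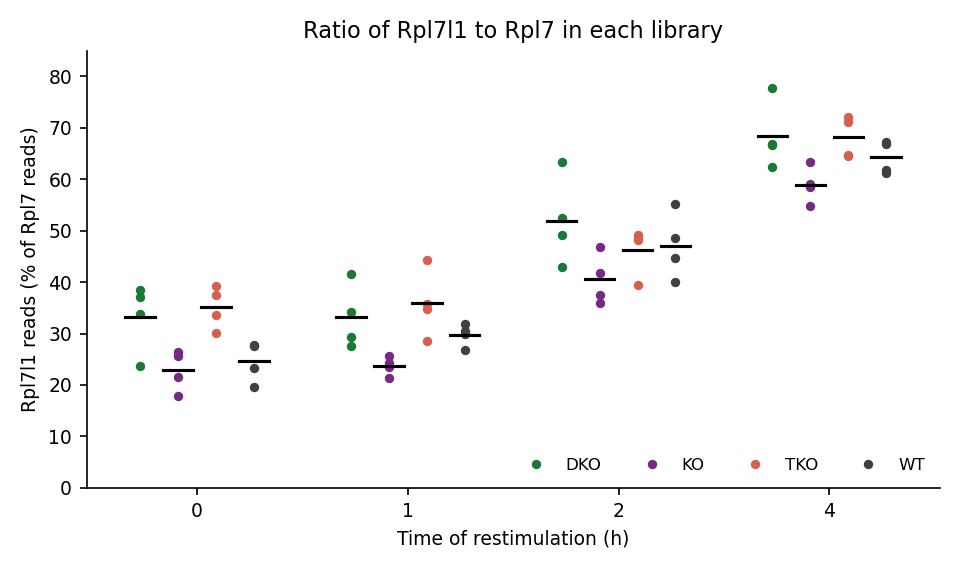
Reads of Rpl7l1 as a percent of the reads of Rpl7 in the same library, for DKO, KO, TKO and WT cells at 0, 1, 2 and 4 h; each point is 1 library and each short line a group mean. WT libraries reach 61.3 to 67.3% at 4 h, above all WT libraries at 0 h (19.6 to 27.8%), and the TKO libraries at 0 h sit at 30.1 to 39.3%.

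The other pairs kept their order in every library. Rps27l, a p53-inducible paralog, had more reads than Rps27 in all 64 libraries, with 1654 to 3426% of its reads in WT cells at 2 h and 2980 to 5170% at 0 h. Rps27 rose by 1.16 ± 0.23 at 2 h (adjusted p = 1.94e-05) and Rps27l by 0.61 ± 0.26 (adjusted p = 0.0405). Rpl36al had 302 to 492% of the reads of Rpl36a at 2 h and 415 to 875% at 0 h, and Rpl36a, the less abundant partner, rose by 1.16 ± 0.18 (adjusted p = 1.06e-07) against 0.47 ± 0.16 for Rpl36al (adjusted p = 0.0129). Rpl22, which developing mouse T cells need, carried the pair with Rpl22l1, whose reads were 4.60 to 7.82% of those of Rpl22 at 2 h and 3.89 to 8.51% at 0 h. Both rose at 2 h, by 0.46 ± 0.14 for Rpl22 (adjusted p = 0.00579) and 0.55 ± 0.20 for Rpl22l1 (adjusted p = 0.0176). Rpl3 of the peptidyl transferase centre rose by 0.71 ± 0.10 at 2 h (adjusted p = 4.53e-08), and its striated muscle paralog Rpl3l had at most 4.73 normalized counts in any library. Rpl39l, known from male germ cells, had at most 6.58 and Rps4y2 at most 7.71, while Rps4x rose by 0.45 ± 0.17 at 2 h (adjusted p = 0.018).

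The factors that build the ribosome and start translation had larger median changes than its own proteins. Of 49 ribosome biogenesis factors, 44 rose at 1 h, 49 at 2 h and 48 at 4 h and 0 fell, with median changes of 1.13, 2.02 and 1.95. Polr1b, a subunit of the RNA polymerase that transcribes rRNA, had 1333 normalized counts at 2 h and 123 at 0 h on average and rose by 3.52 ± 0.21 (adjusted p = 1.12e-20). Nop56 and Fbl, of the snoRNPs that modify rRNA, rose by 2.14 ± 0.18 and 1.78 ± 0.18 at 2 h (adjusted p = 3.30e-15 and 7.25e-13). Of 8 noncoding snoRNA host genes 7 rose at 2 h (median 1.295), among them Gas5, by 1.22 ± 0.16 (adjusted p = 5.83e-09). All 29 translation initiation factors rose at 2 h (median 1.12), including Eif3a by 1.23 ± 0.10 (adjusted p = 2.40e-16). The 5 elongation factors all rose at 2 h (median 0.70), and Eef2 and Eef1a1, among the most abundant TOP mRNAs, rose by 0.42 ± 0.13 and 0.48 ± 0.16 (adjusted p = 0.00407 and 0.00927). Of 10 further TOP mRNAs 8 rose (median 0.80), such as Tpt1 by 0.73 ± 0.11 (adjusted p = 1.38e-07) and Pabpc1 by 0.88 ± 0.11 (adjusted p = 5.78e-10).

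The regulators of these genes moved in both directions. Myc had 11770 normalized counts at 2 h and 1472 at 0 h on average and rose by 3.01 ± 0.18 (adjusted p = 4.70e-21). In the list of 10 MYC-related factors 3 rose and 5 fell at 2 h, and Mxd4, an antagonist of MYC, fell by 2.25 (SE 0.27, adjusted p = 2.47e-10). Of 16 regulators of TOP mRNAs 7 rose and 3 fell at 2 h. Beside both lists, 26.5% of all genes tested rose and 25.4% fell at 2 h. Larp1 rose by 1.78 ± 0.10 (adjusted p = 1.24e-21) and Rps6kb1, an S6 kinase, by 1.03 ± 0.08 (adjusted p = 1.76e-16), Maf1, a repressor of RNA polymerase III, fell by 0.95 (SE 0.16, adjusted p = 1.10e-06), and Mtor changed by 0.15 ± 0.11 (adjusted p = 0.292). The proteins of the mitochondrial ribosome, 76 genes, had 12 higher and 2 lower at 1 h, 36 higher and 3 lower at 2 h, and 43 higher and 5 lower at 4 h, with medians of 0.10, 0.39 and 0.54. Of all genes 18.7, 26.5 and 24.6% were higher and 12.4, 25.4 and 27.1% lower at these times.

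In the knockouts the same genes climbed after restimulation as well. Over the 83 members the median change against each knockout's own 0 h was 0.30, 0.59 and 0.57 at 1, 2 and 4 h in DKO cells, 0.36, 0.63 and 0.62 in KO cells and 0.22, 0.33 and 0.45 in TKO cells. The genotype comparisons below share the WT libraries of each time. They also turn on the scaling, because the members' median differed from 0 by little: over 6 scalings its sign stayed the same at 1 and 2 h in DKO cells (negative), at 0 and 1 h in KO cells (positive) and at 2 h in TKO cells (negative), and flipped in the other 7 comparisons with WT cells.

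In cells without Roquin few of these mRNAs passed. In DKO cells 6 of 83 members were lower than in WT cells at 0 h, 2 at 1 h, 4 at 2 h and 0 at 4 h, and 0 were higher at any time. Over 6 scalings 0 to 9 members were lower and 0 to 4 higher at 0 h, the 4 higher ones under the deposited scaling, which called none lower. Of all genes 2.27, 2.26, 1.51 and 0.682% were lower and 5.32, 5.94, 7.96 and 4.68% higher at these times. The median difference of the members was -0.19, -0.14, -0.13 and 0.01, and its sign at 0 and 4 h flipped with the scaling. At 4 h no member passed at an unadjusted p under 0.05 either.

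Rpl8, next to the peptidyl transferase centre, was the member lower at 0, 1 and 2 h. It had 2355, 2581, 2180 and 2405 normalized counts in DKO cells at 1 h, against 3230, 2781, 3117 and 3364 in WT cells. At 2 h it had 2850, 3100, 2664 and 3144 in DKO cells and 3528, 4103, 4195 and 3377 in WT cells. Neither pair of groups overlapped, and Rpl8 fell by 0.39 at 1 h and 0.37 at 2 h in DKO cells (SE 0.10 each, limma, adjusted p = 0.00493 and 0.00825), under all 6 scalings. Rpl9 had 217, 225, 219 and 182 normalized counts in DKO cells and 333, 262, 288 and 238 in WT cells at 1 h, again apart, and was lower by a log2 difference of -0.40 ± 0.13 (adjusted p = 0.0404). At 2 h Rpl35, at the tunnel exit, had 961, 939, 786 and 908 in DKO cells and 1120, 1558, 1122 and 1142 in WT cells (-0.45 ± 0.14, adjusted p = 0.0337), and Rps16 had 911, 896, 712 and 828 in DKO cells and 967, 1378, 1049 and 1064 in WT cells (-0.41 ± 0.14, adjusted p = 0.0493). These calls were few, and their number depended on single libraries. At least 1 call remained at each of 0, 1 and 2 h whichever library was left out. At 0 h the count was 16 without WT library 4, 3 without DKO library 1 or 3, and 1 without DKO library 4 or any of WT libraries 1, 2 and 3. At 1 h it was 1 without any of DKO libraries 1, 3 and 4 and WT libraries 1 and 3, and at 2 h it was 1 without any of DKO libraries 2, 3 and 4 and WT library 2.

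In cells without Regnase-1 alone no member passed at 0, 1 or 2 h, with 1, 3 and 2 members at an unadjusted p under 0.05 (limma). Under the deposited scaling 17 members were higher at 0 h. At those times 1.17, 1.84 and 4.68% of all genes were higher in KO cells and 0.167, 0.322 and 1.23% lower. At 4 h 14 members were higher and 0 lower in KO cells, beside 21.7 and 11.4% of all genes, with a median difference of 0.26 for the members and 0.22 for all genes. Of the members, 24 had all KO libraries above all WT libraries (24.1% of all genes). Under the deposited scaling the count was 0 and the median -0.02.

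The 3 largest of these differences were in Rps27, Rps21 and Rps3a2. Rps27 had 34.6, 32.8, 43.3 and 30.7 normalized counts in KO cells at 4 h and 18.4, 30.5, 18.3 and 27.0 in WT cells (0.59 ± 0.23, adjusted p = 0.0416). Rps21 had 578, 444, 371 and 354 in KO cells and 346, 276, 260 and 327 in WT cells (0.51 ± 0.17, adjusted p = 0.0168). In both genes the lowest KO library lay just above the highest WT library. Rps3a2, whose row shares most of its sequence with Rps3a1, had 2343, 2059, 2171 and 2186 in KO cells and 1675, 1713, 1493 and 1586 in WT cells (0.44 ± 0.18, adjusted p = 0.0486), and Rps3a1 had a difference of 0.37 ± 0.11 (adjusted p = 0.0127). None of the 14 was called under all 6 scalings. The count was 2 without KO library 1, and 8, 6 and 7 without WT libraries 1, 2 and 3.

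**Figure D5:**
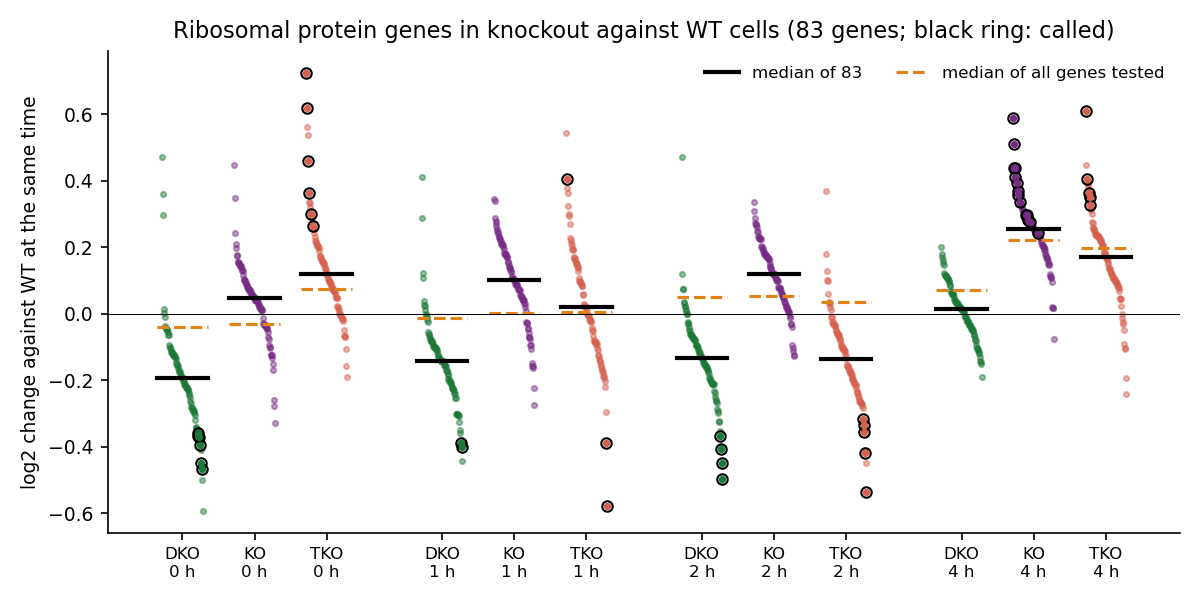
Difference from WT cells at the same time (log2 of normalized count + 1) for each of the 83 members in DKO, KO and TKO cells at 0, 1, 2 and 4 h; each point is a member, rings mark members that passed the test, the black line is the median member and the orange dashed line the median of all genes tested. KO cells at 4 h have 14 rings, with medians of 0.26 for the members and 0.22 for all genes, against no calls and a median of -0.02 for the members under the deposited scaling.

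In cells without all 3 genes few members passed at each time, and the direction of the calls at 4 h turned on the scaling. In TKO cells 6 members were higher and 0 lower than in WT cells at 0 h, 1 was higher and 2 lower at 1 h, 0 higher and 5 lower at 2 h, and 5 higher and 0 lower at 4 h. Over 6 scalings 2 to 8 were higher and 0 to 1 lower at 0 h, 0 to 1 higher and 2 to 18 lower at 1 h, 0 higher and 4 to 23 lower at 2 h, and 0 to 6 higher and 0 to 5 lower at 4 h. Of all genes 19.3, 15.8, 20 and 27.4% were higher and 18, 15.7, 16.5 and 16.3% lower. The median difference of the members was 0.12, 0.02, -0.14 and 0.17, of which only that at 2 h kept its sign under all 6 scalings.

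At 0 h the paralogs Rpl7l1 and Rpl22l1 stood out. Rpl7l1 had 413, 367, 481 and 557 normalized counts in TKO cells and 308, 264, 348 and 190 in WT cells, with no overlap (0.73 ± 0.16, adjusted p = 0.000328). As a percent of Rpl7 it was 30.1 to 39.3% in TKO cells and 19.6 to 27.8% in WT cells, also apart (exact permutation test, p = 0.0286, adjusted 0.286). In DKO and KO cells at 0 h the differences were 0.30 ± 0.16 (adjusted p = 0.284) and -0.04 ± 0.16 (adjusted p = 0.953). Rpl22l1 had 147, 153, 86.1 and 118 in TKO cells and 78.8, 63.2, 112 and 72.2 in WT cells, which overlapped (0.62 ± 0.20, adjusted p = 0.0123). These 2 were higher under all 6 scalings. Rps2, at the entry of the mRNA channel, had 3135, 3201, 2922 and 3081 in TKO cells and 2842, 2335, 2692 and 2206 in WT cells (0.30 ± 0.12, adjusted p = 0.0421), but not under all scalings. The count of 6 was 11 without WT library 3, 2 without WT library 4, and 3 without TKO library 1 or WT library 2.

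At 1 h the members lower in TKO cells were Rps12 and Rpl24, of which Rps12 had the largest rise in WT cells. Rps12 had 111, 129, 102 and 124 normalized counts in TKO cells at 1 h and 159, 137, 212 and 198 in WT cells (-0.58 ± 0.18, adjusted p = 0.0129). Rpl24 had 625, 622, 741 and 612 in TKO cells and 897, 848, 809 and 847 in WT cells (-0.39 ± 0.08, adjusted p = 0.000272). Both groups of Rps12 and of Rpl24 were apart, and both genes were lower under all 6 scalings, while without WT library 3 the 3 calls at 1 h became 1. At 2 h Rpl38 had 240, 173, 219 and 259 in TKO cells and 305, 300, 301 and 275 in WT cells (-0.42 ± 0.13, adjusted p = 0.00892). Rpl28 had 101, 138, 114 and 142 in TKO cells and 187, 164, 231 and 143 in WT cells, the highest TKO library just below the lowest WT library (-0.54 ± 0.18, adjusted p = 0.0163). Rpl8 had 3352, 3068, 2907 and 2711 in TKO cells and 3528, 4103, 4195 and 3377 in WT cells (-0.33 ± 0.10, adjusted p = 0.00478). These 3 genes were lower under all 6 scalings. The count of 5 was 3 without TKO library 2 or WT library 2 or 3 and 8 without WT library 4.

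At 4 h Rpl24 was higher in TKO cells, with 467, 437, 504 and 483 normalized counts and 353, 361, 391 and 400 in WT cells (0.33 ± 0.08, adjusted p = 0.00123). Rpl22 had 1809, 1825, 1958 and 2047 in TKO cells and 1516, 1387, 1566 and 1467 in WT cells (0.36 ± 0.14, adjusted p = 0.0363). Rpl11 had 485, 507, 582 and 551 in TKO cells and 444, 386, 463 and 376 in WT cells (0.35 ± 0.14, adjusted p = 0.0312). Each group pair was apart, but none of the 5 calls at 4 h held under all 6 scalings, and the count was 1 without WT library 2 and 3 without any of TKO libraries 1 and 4 and WT libraries 1 and 3.

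Whether the response to restimulation itself differed between a knockout and WT cells was tested as the difference of the changes. No member passed in any of 6 such tests (limma), that is for DKO, KO and TKO cells between 0 and 2 h and between 0 and 4 h. At an unadjusted p under 0.05 there were 0, 0 and 12 members at 2 h and 4, 2 and 2 at 4 h in DKO, KO and TKO cells. Of all genes 0.204, 0.173 and 2.26% had a larger and 0.136, 0.031 and 2.33% a smaller change in DKO, KO and TKO cells than in WT cells at 2 h, and 0.489, 1.96 and 4.77% a larger and 0.328, 0.229 and 1.85% a smaller change at 4 h. For the members the difference between TKO and WT cells at 2 h had a median of -0.26, against -0.000169 for all genes, with 1 of 83 values above 0 and a lowest adjusted p of 0.0539. The median stayed below 0 under 6 scalings, at -0.42 to -0.19, and 10 members passed under the deposited scaling.

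The authors' deposited table holds their own false discovery rates. At a rate under 0.05, 14 members differed in the authors' deposited table at 1 h against 0 h in WT cells, 48 at 2 h and 34 at 4 h, all of them higher here too, and 14, 47 and 32 of these were among the members called here. Between genotypes the authors' deposited table had 1 member at this rate for TKO cells at 0 h, 1 for TKO cells at 1 h and 0 in the other 10 comparisons with WT cells at the same time. The share of all genes at the authors' rate was not counted. Whether the members exceed it is therefore not known.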

How the data were processed

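RNA of 64 libraries was extracted with Trizol and prepared with a NuGEN Universal kit, per the labels' protocols, and the genome build was GRCm38, per the submitters' processing notes. Aligner, counter, annotation and strand setting are each not given in the sources used here. Per the file headers, the authors deposited a list of 4 normalized counts per gene in each group, the group mean of these (signal, not used further), and, for their own comparisons, a false discovery rate (adjusted p-value) and a log2 fold change. Each library's low values were multiples of a single step (100% whole within 0.1 read), which gave its total reads.

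Values were rescaled by trimmed-mean factors (TMM, trims of 30 and 5 percent), and genes with at least 10 reads at the median depth (1.3 CPM) in at least 4 libraries and at least 15 reads in all were kept. limma 3.58.1 (R 4.3.3) was fitted to log2(value + 1), which understates changes of low genes, with a mean for each of the 16 groups (48 residual degrees of freedom, trended and robust moderation). P-values were 2-sided and adjusted by Benjamini-Hochberg over 16140 genes in each of 21 contrasts. The design had foreseen a count model for raw counts. The deposited values are normalized, so the limma fit foreseen for such values was used. Between libraries of a group, chi-square per degree of freedom was 5.11 to 69.1, so each counted as 1 sample. The procedure was tested on simulated data.

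Members and gene lists were chosen with earlier results of these data known. The members named were the paralog pairs, Rpsa, Rps6, the stalk proteins, Rps27a, the highest and lowest by level, and in each contrast the 3 largest rises and falls among called members with groups apart. Rpl5, Rpl12, Rpl13a, the genes whose start sites are printed and the examples from gene lists were chosen after their values were seen. Alternatives covered scaling, pseudocount, filter, gene length, the groups fitted, voom weights, each library left out, and 3 added after seeing the data. Coordinates and lengths are from GENCODE M21 and start-site sequences from RefSeq.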

Additional observations from a re-analysis of the deposited data

Results flagged for a closer look

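In 176 groups of 4 values looked at (the members described and the share of reads), 7 had a library far from the other 3, where chance alone flags about 1 in 20. The percent of reads on the members was 1.014 in DKO library 3 at 0 h, against 0.798 to 0.828 in the other DKO libraries at 0 h, and 1.015 in 1 DKO library at 2 h. In WT cells, Rpsa had 3618 normalized counts in library 1 at 1 h, Rpl39 had 1077 in library 3 at 0 h, Rpl35 had 1558 in library 2 at 2 h, Rps2 had 2707 in library 4 at 4 h and Rpl5 had 794.6 in library 4 at 4 h, each apart from the other 3 libraries of its group. The 10 most abundant loci held 37.6% of the reads in WT library 3 at 0 h and 37.0% in WT library 4 at 4 h, the highest share in each of these groups. The part of that share in these values was not tested.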

How the results depend on the processing

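For the 61 named results, 1140 of 1400 recomputed values kept their direction and side of the threshold, 255 kept the direction and lost the call, and 5 reversed, all under quantile normalization, with -0.02942 for Rpl3 at 1 h and -0.01136 for Rpl7, -0.07843 for Rpsa, -0.2788 for Rplp0 and -0.01589 for Rpl4 at 2 h in WT cells; the cause was not tested. For the counts of members called, values over 1.5 times from those reported were these, by setting, and the cause of each was not tested. With the deposited scaling, counts were 49 in WT cells at 1 h, 4 in DKO cells at 1 h, 17 higher in KO cells at 0 h, 0 in KO cells at 4 h, 18 lower at 1 h, 17 lower at 2 h and 2 lower at 4 h in TKO cells, and for differences of changes 1 in DKO, 1 in KO and 10 in TKO cells at 2 h and 2 in TKO cells at 4 h. With upper quartile scaling they were 18 in WT cells at 1 h and 42 at 2 h, 0 in KO cells at 4 h, 3 at 0 h and 23 at 2 h in TKO cells, and 1 for the TKO change at 2 h. With median-of-ratios scaling they were 0 in KO cells at 4 h, 3, 18 and 0 in TKO cells at 0, 2 and 4 h, and 1 for the TKO change at 2 h. With quantile normalization they were 38 in WT cells at 2 h, 1 in KO cells at 4 h, 8 at 2 h and 3 lower at 4 h in TKO cells, and 2 for the TKO change at 2 h. With TMM without the members and the 10 most abundant loci they were 1 in DKO cells at 1 and at 2 h and 3 in TKO cells at 0 h. With a correction for gene length they were 3 in DKO cells at 0 h and 1 at 1 h, 3 in TKO cells at 2 and at 4 h, and 1 for the TKO change at 2 h. With no filter they were 3, 1 and 2 in DKO cells at 0, 1 and 2 h, and with a stricter filter 1 for the TKO change at 2 h. The direction of the calls reversed with the deposited scaling in DKO cells at 0 h (4 higher, 0 lower) and in TKO cells at 4 h (0 higher, 2 lower), and in TKO cells at 4 h also with upper quartile scaling (5 lower) and quantile normalization. In fits of only the groups compared, with fewer samples, they were 18 in WT cells at 1 h, 0, 1 and 0 in DKO cells at 0, 1 and 2 h, and 1, 1 and 12 in TKO cells at 0, 2 and 4 h. With limma voom on recovered reads they were 2 in DKO cells at 0 and at 2 h and 1 for the TKO change at 2 h. With 2 alternatives chosen after seeing the data, the share of the 10 most abundant loci as a covariate gave 57 in WT cells at 1 h, 11 and 9 in DKO cells at 0 and 1 h, 26 in KO cells at 4 h, 5, 10 and 8 in TKO cells at 1, 2 and 4 h, and 1 for the TKO change at 2 h, and pseudogene rows added to members gave 1 in DKO cells at 1 h and 22 in KO cells at 4 h.

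Leaving out 1 library at a time gave 20 to 39 members in WT cells at 1 h, 57 to 74 at 2 h and 34 to 52 at 4 h. It gave 1 to 16, 1 to 3 and 1 to 4 in DKO cells at 0, 1 and 2 h, 2 to 16 in KO cells at 4 h, and 2 to 11, 1 to 3, 3 to 8 and 1 to 5 in TKO cells at 0, 1, 2 and 4 h. For differences of changes it gave 0 to 2 in DKO cells and 0 to 1 in KO cells at 4 h and 0 to 1 in TKO cells at 2 h, and 0 throughout in the other comparisons. No paired analysis was possible because the deposited lists carry no replicate numbers. Taking the place in the list as a replicate block, chosen after seeing the data, gave 1 member for the TKO change at 2 h and moved no other count by over 1.5 times. Libraries at the same place had a median correlation of 0.00718 (lowest -0.493, highest 0.704), and 19 of 64 correlated best with their own place. The planned count models on recovered reads were not run, although limma voom was run on these reads. Depth limits Rpl39l, Rps4y2 and Rpl3l, which had too few reads to be tested.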
